A study of Mus musculus with 6 samples.

Results

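Chemokines are small secreted or membrane-bound proteins that bind G-protein-coupled receptors on leukocytes and other cells and direct their movement. They are named by the spacing of conserved cysteines, as CC (Ccl), CXC (Cxcl), CX3C (Cx3cl) and XC (Xcl) ligands, and their receptors follow the same scheme (Ccr, Cxcr, Cx3cr, Xcr). Some are made constantly and place cells within a tissue, and others appear when interferon or inflammatory signals reach stromal, epithelial or myeloid cells.

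The genes described here are those whose symbol in the array's annotation names a numbered chemokine or chemokine receptor, taken from probe sets that carry a single symbol. There were 50 such genes, 33 ligands and 17 receptors, of the 18194 genes with a single-symbol probe set. Together they had 78 probe sets, and each gene is represented by its probe set of highest mean over the 6 arrays. Probe sets that carry several symbols are not among them. This leaves out the near-identical copies of Ccl19 and Ccl21, and the probe sets that the Ccl27 copies share.

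The RNA came from microdissected thyroid of mice at postnatal day 15. Of the 6 arrays, 3 were from animals heterozygous for Slc26a4 and 3 from animals in which it was knocked out, so the controls also lack 1 working copy. Slc26a4 encodes pendrin, an anion exchanger of the thyroid follicular cell, and the comparison asks what differs in the gland without it. Arrays are named by genotype and by the number in their title, heterozygous 1, 3 and 5 and knockout 2, 4 and 6. The labels do not give the strain, the part of the gene removed, or how many animals gave each RNA. The p-values therefore measure the spread between these samples alone, which may be technical.

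Values are linear array signals, scaled by the authors to the same trimmed mean on each array. Array medians ran from 78.1 to 103.6. A signal was taken as above background when it exceeded 22.9, the highest value of 27 control probe sets for bacterial transcripts on any array. By that limit 67.5% to 73.8% of an array's probe sets were above background. The follicular cell's own markers were strong on every array, with thyroglobulin (Tg) between 11794 and 13805. The Slc26a4 probe set read between 2.10 and 15.7 on all 6 arrays, under background in both genotypes, and so did not check the genotypes. One array stood apart in a way that bears on chemokines. The 9 measured markers of T cells and thymocytes summed to 4412 on knockout 4 and to between 147 and 226 on the other arrays, and all 9 were highest on knockout 4.

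Of the 50 genes, 29 lay above background on all 3 arrays of at least 1 genotype, which is 58.0%. The share of all genes by this rule is not given here. The shares per array count every probe set on a single array, so they are not comparable with it. Those 29 genes were 20 of the 33 ligands and 9 of the 17 receptors, and 27 of the 29 were above background on all 6 arrays. A further 9 exceeded it on some arrays without filling either genotype. These were Ccl17, Ccl5, Xcr1, Ccl28, Cxcl15, Ccr7, Cxcl5, Ccl3 and Ccl22. The remaining 12 were under background on all 6 arrays. They were the ligands Cxcl2, Cxcl3, Xcl1, Ccl1, Ccl4 and Ccl20 and the receptors Cxcr2, Cxcr5, Ccr3, Ccr4, Ccr8 and Ccr1l1. A reading under background is a limit of the probe set and does not show that the transcript was missing. In whole tissue, fewer cells of a type and less RNA per cell cannot be told apart.

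**Figure D1:**
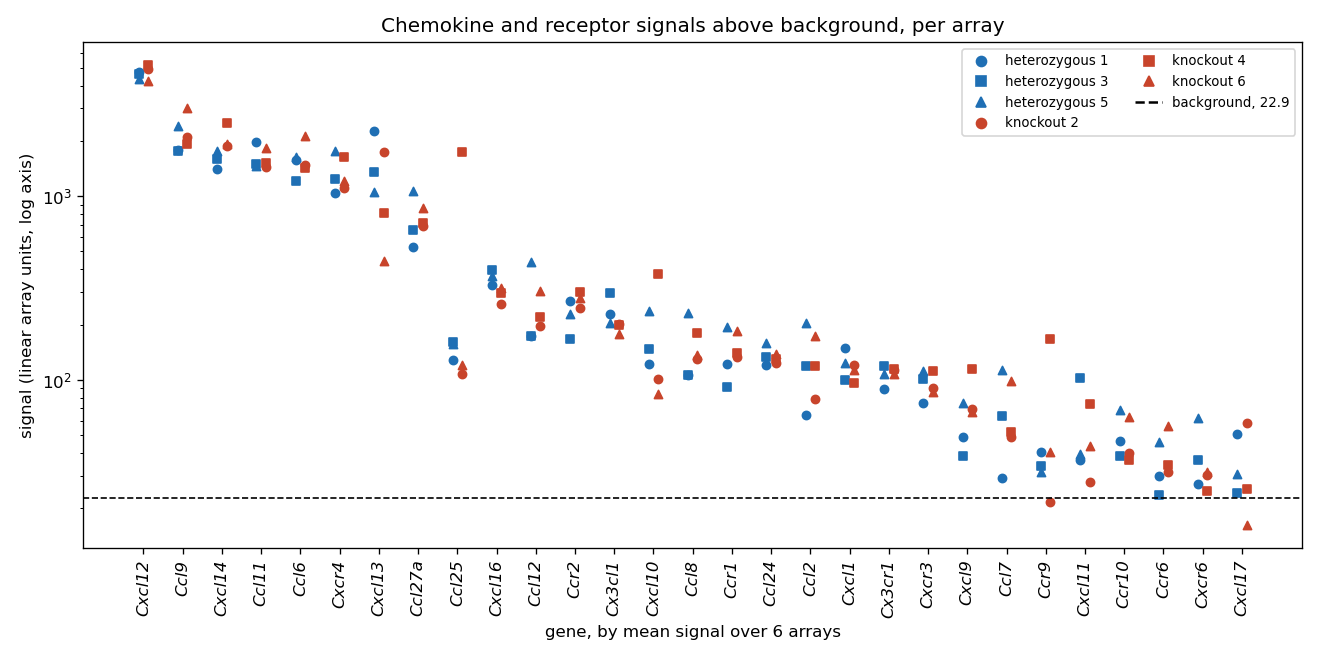
Signal of the 29 chemokine and receptor genes above background, 1 point per array on a log axis (linear array units), blue for heterozygous and red for knockout thyroid, with the background of 22.9 as a dashed line. The genotypes overlap for most genes, and Ccl25 on knockout 4 lies far above its other 5 points.

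No chemokine or receptor gene differed between knockout and heterozygous thyroid past the threshold. Of the 50 genes, 26 passed the filter on dim probe sets, 19 ligands and 7 receptors, and were tested within a fit over all 27022 probe sets that passed. The count called was 0 higher and 0 lower (limma, adjusted p of 0.05), where 0% of all probe sets tested were called in either direction, and the adjusted p of each of the 26 was 1.0. At an unadjusted p under 0.05 there was 1 of 26, Cxcl14, against 0.511% of all probe sets tested in either direction and 0.244% in that of Cxcl14 (limma). The genotypes did not overlap for 3 of the 26, higher in knockout for Cxcl14 and lower for Cxcl16 and Cx3cl1, against 3.68% of all probe sets tested, 1.64% higher and 2.04% lower. The difference was above 0 for 15 and below 0 for 11, where 49.3% of all probe sets tested were above 0, with a median of 0.03 on the log2 scale beside -0.0021 for all probe sets tested. These numbers of arrays leave wide intervals for many genes, and a p that misses the threshold does not show equal levels.

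**Figure D2:**
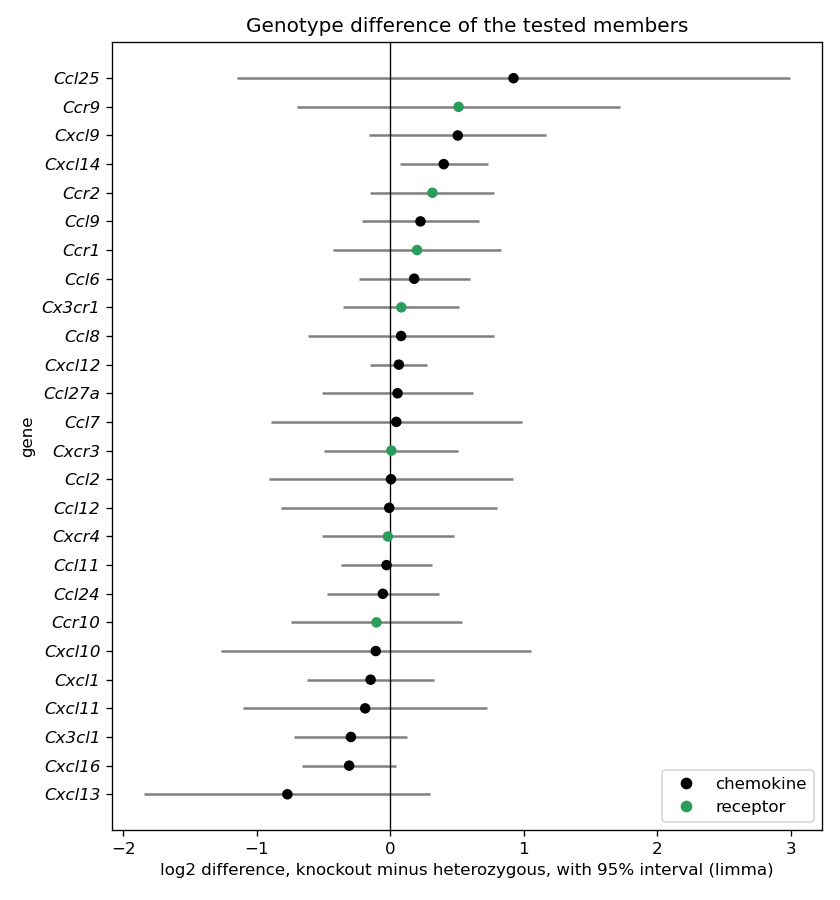
Difference between genotypes for the 26 tested genes, as log2 knockout minus heterozygous with the 95% interval from limma, ligands in black and receptors in green. The points run from -0.77 for Cxcl13 to 0.92 for Ccl25, and the interval lies off 0 for Cxcl14 alone.

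The chemokines that place cells in resting tissue included the steadiest member and the most variable ones. Cxcl12, a stromal chemokine that retains Cxcr4-bearing cells, read 4716, 4633 and 4339.8 on heterozygous 1, 3 and 5 and 4939, 5149.7 and 4256 on knockout 2, 4 and 6. The genotypes overlapped, and the highest array was only 1.21 times the lowest, the smallest such ratio among the 26 tested genes. The group means were 4563 ± 198 and 4782 ± 467 (SD, n = 3), a log2 difference of 0.06 ± 0.09 (SE; 95% interval -0.15 to 0.28). The other tested Cxcl12 probe set gave 772 ± 74.3 and 769 ± 80.3 and a log2 difference of -0.01. Its receptor Cxcr4, which is carried by most leukocytes and by endothelium, read 1044, 1238 and 1752 on heterozygous 1, 3 and 5 and 1108, 1629.5 and 1207 on knockout 2, 4 and 6. Those ranges overlap almost wholly, and the log2 difference was -0.02 (interval -0.51 to 0.48).

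Cxcl14, a chemokine made by epithelia and fibroblasts whose receptor is not settled, had the smallest p of the 26 representative probe sets. It read 1399, 1598 and 1751 in heterozygous thyroid (arrays 1, 3 and 5) and 1884, 2509.8 and 1916 in knockout thyroid (arrays 2, 4 and 6). Every knockout array was above every heterozygous array, with knockout 4 the highest. The means were 1583 ± 177 and 2103 ± 353, a log2 difference of 0.40 ± 0.14 (SE; interval 0.07 to 0.73; limma, unadjusted p = 0.0231, adjusted p = 1.0). The other Cxcl14 probe set gave 820.3, 983 and 1237 against 1424, 1664 and 1116, where knockout 6 falls inside the heterozygous range, and a log2 difference of 0.46. By the first probe set the difference was 0.27 without knockout 4. Without heterozygous 1 or without knockout 4, Cxcl14 no longer had an unadjusted p under 0.05 (limma).

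The 250 bases before the RefSeq start of Cxcl14 are printed because its representative probe set had the smallest p. They were searched on both strands for a core of the interferon-stimulated response element (ISRE), which is GAAA, any 2 bases and GAAA. The interferon-gamma activated site (GAS) was searched as TTC, any 3 bases and GAA, and an NF-kB motif as GGG, any 2 bases and TTTCC. Matches are in capitals. The sequence is GRCm38.p6, minus strand, chr13:56296552-56296801.
Cxcl14: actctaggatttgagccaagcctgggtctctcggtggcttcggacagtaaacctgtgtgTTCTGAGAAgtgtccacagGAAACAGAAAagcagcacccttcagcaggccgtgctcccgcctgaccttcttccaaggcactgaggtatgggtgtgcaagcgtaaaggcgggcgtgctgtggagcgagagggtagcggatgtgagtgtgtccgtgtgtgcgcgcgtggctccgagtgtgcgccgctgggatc
A GAS match spans bases 191 to 183 before the start and an ISRE match spans bases 172 to 163, and they do not overlap. Among the 32851 promoter windows of this length in the RefSeq table, 2.98% hold the ISRE letters, 7.02% the GAS letters and 1.41% the NF-kB letters. Of the 50 genes, 37 had a window in that table. A match is a run of letters and not a shown binding site.

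Cxcl13, which draws B cells through Cxcr5, had the lowest log2 difference of the tested members and a wide spread. Its signals were 2249.6, 1346 and 1053 on heterozygous 1, 3 and 5, then 1733, 812 and 442 on knockout 2, 4 and 6. The genotypes overlapped, with heterozygous 1 and knockout 2 high and knockout 6 low. Means of 1549 ± 624 and 995 ± 665 gave a log2 difference of -0.77 ± 0.47 (SE; interval -1.84 to 0.30). A second probe set kept the same order of the arrays within each genotype, at 823, 419 and 332 against 484, 293 and 186, and gave -0.67. Without heterozygous 1, knockout 2 or knockout 6 in turn, the difference ran from -1.27 to -0.31. Summed over its 3 markers, skeletal muscle also stood highest on heterozygous 1 (10441) and knockout 2 (10669) and lowest on knockout 6 (1167). The 4 measured B cell markers summed to 357, 532 and 449 on heterozygous 1, 3 and 5. On knockout 2, 4 and 6 they summed to 442, 445 and 311, so knockout 6 was lowest here too. Most of that sum was Cd79b, and Cd79a and Pax5 were not above background on all arrays of either genotype. The part of skeletal muscle or of B cells in the Cxcl13 signal was not tested. Cxcr5 itself was under background on all arrays.

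**Figure D3:**
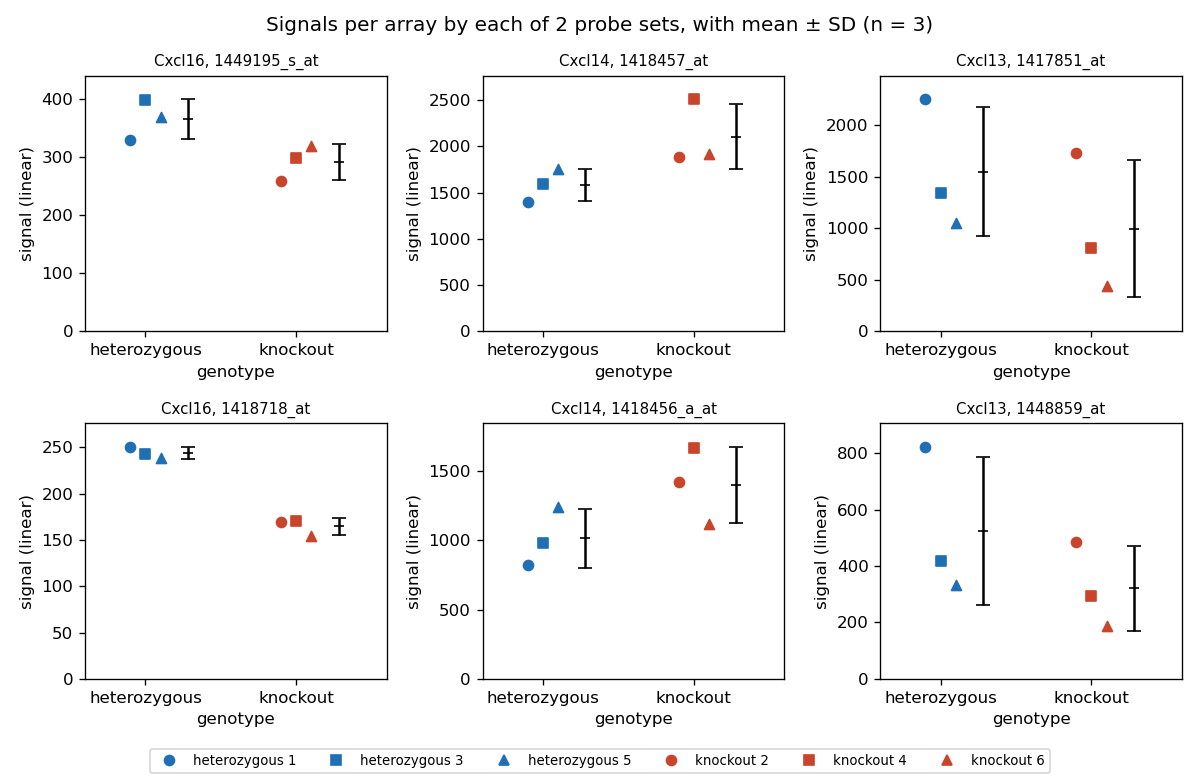
Signals per array of Cxcl16, Cxcl14 and Cxcl13 by each of their 2 tested probe sets (linear array units from 0), points for arrays and bars for the mean ± SD of 3 arrays. The upper row is the probe set that represents the gene. Both Cxcl16 probe sets separate the genotypes, Cxcl14 separates them in the upper panel only, and Cxcl13 overlaps in both.

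The membrane chemokines Cxcl16 and Cx3cl1 both read lower in every knockout array than in any heterozygous array, by small steps that did not pass the test. Both are made as transmembrane proteins that can be shed by the proteases Adam10 and Adam17. Cxcl16, a ligand of Cxcr6 that also acts as a scavenger receptor for oxidised lipoprotein, read 328, 397 and 368 on heterozygous 1, 3 and 5 and 258, 297 and 318 on knockout 2, 4 and 6. The highest knockout value lies just under the lowest heterozygous value. Means of 364 ± 34.4 and 291 ± 30.6 gave a log2 difference of -0.31 ± 0.15 (SE; interval -0.66 to 0.05; limma, unadjusted p = 0.0794, adjusted p = 1.0).

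The other Cxcl16 probe set showed a wider gap, at 251, 243 and 239 on the heterozygous arrays and 169.6, 170.4 and 154 on the knockout arrays. Its means were 244 ± 6.26 and 165 ± 9.26, and its log2 difference was -0.53 ± 0.15 (SE; interval -0.88 to -0.18; limma, unadjusted p = 0.00857, adjusted p = 1.0). This probe set is shown because it measures the same gene and was not the one the naming rule chose. With the log2 values of both probe sets averaged, the difference was -0.42, and leaving out each array in turn moved that of the first one between -0.38 and -0.23. The summed macrophage markers overlapped between genotypes, at 22017 to 25718 and 21806 to 25050, as did the thyrocyte markers, at 17545 to 21295 and 18499 to 19336. The brightest markers weigh most in these sums, and Tg made up most of the thyrocyte sum. The part of these or of other cell types in the Cxcl16 signal was not tested.

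Cx3cl1 (fractalkine), a ligand on endothelium, neurons and epithelium, read 229, 296 and 204 on heterozygous 1, 3 and 5 and 201, 199.6 and 177 on knockout 2, 4 and 6. Heterozygous 5 lay close to the knockout arrays. The log2 difference was -0.30 ± 0.18 (SE; interval -0.72 to 0.13), and the other tested probe set overlapped, at 64.5 ± 25.5 and 52.9 ± 3.61. The matching receptors showed no such order. Cx3cr1, found on resident macrophages and monocytes, read 105 ± 15.0 and 112 ± 3.57, a log2 difference of 0.08. Cxcr6, found on T cells and natural killer cells, stood barely above background at 42.0 ± 18.0 and 28.9 ± 3.60 and fell under the filter.

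Ccl25 and its receptor Ccr9 were raised on a single array. Ccl25 is made by thymic and intestinal epithelium and draws thymocytes and gut-homing T cells. It read 128, 160.2 and 157 on heterozygous 1, 3 and 5 and 108, 1742 and 121 on knockout 2, 4 and 6. Ccr9 read 40.4, 34.2 and 31.4, then 21.7, 167 and 40.6 in the same order. For both genes the other knockout arrays lay within or near the heterozygous values, and the highest array was 16.1 times the lowest for Ccl25 and 7.72 times for Ccr9. The log2 differences were 0.92 ± 0.90 and 0.51 ± 0.53 (SE; intervals -1.15 to 2.99 and -0.70 to 1.72). Without knockout 4, Ccl25 turned to -0.33. Ccr9 then fell under the filter, and without the filter its difference turned to -0.15.

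On the same array Dntt, an enzyme of immature lymphocytes, read 1779.5, against 6.09 to 24.5 on the others, and Prss16, a protease of thymic cortical epithelium, read 753, against 1.74 to 15.0. Psmb11, the thymic proteasome subunit, read 93.5 there, against 3.95 to 16.5. Foxn1, the thymic epithelial transcription factor, read 4.38 on knockout 4, under background and the lowest of the 6 arrays. The part of thymic tissue in the Ccl25 and Ccr9 signals was not tested. Another Ccl25 probe set read 71.6 on knockout 4, inside its range of 41.4 to 76.0 on the other arrays. Of the 4 other Ccr9 probe sets, 1 read 61.5 on knockout 4 and 2.01 to 9.88 elsewhere, and another read 30.2 there and 20.6 to 35.5 elsewhere. The remaining ones were under background on all arrays.

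**Figure D4:**
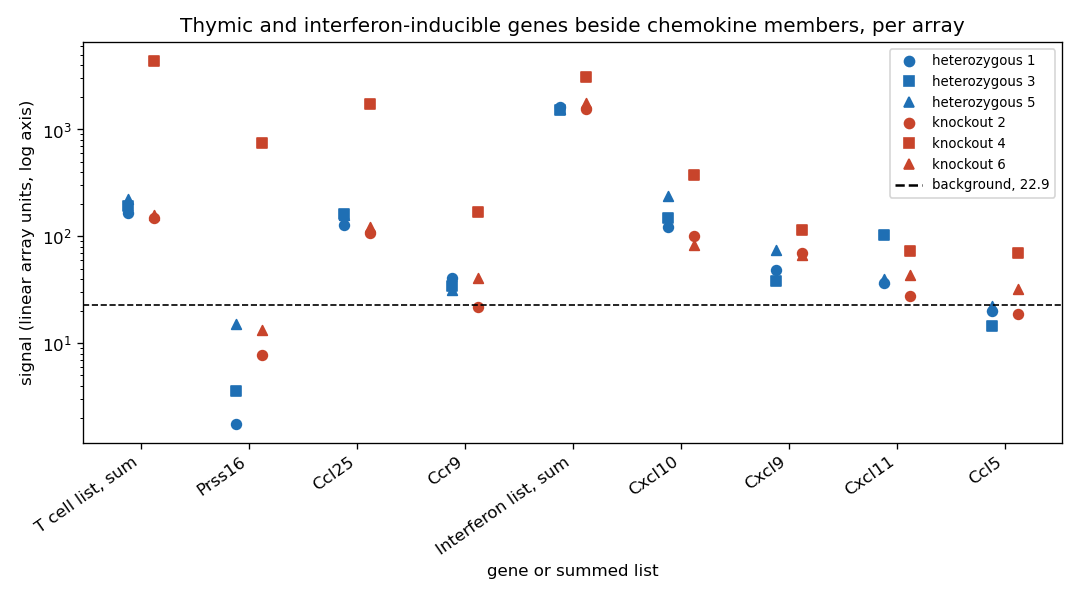
Signals per array on a log axis (linear array units) of the summed T cell and thymocyte markers, Prss16, Ccl25 and Ccr9, and of the summed interferon-inducible genes, Cxcl10, Cxcl9, Cxcl11 and Ccl5, with the background of 22.9 as a dashed line. Knockout 4, the red square, is the highest point of each column except Cxcl11, where heterozygous 3 is higher.

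The interferon-inducible ligands of Cxcr3 did not separate the genotypes, and knockout 4 was the highest array for Cxcl9 and Cxcl10. These ligands attract activated T cells and natural killer cells. Cxcl10 read 122, 148 and 239 on heterozygous 1, 3 and 5 and 101, 378 and 83.9 on knockout 2, 4 and 6. The other knockout arrays lay below all heterozygous arrays, so the log2 difference was -0.11 (interval -1.27 to 1.05) and -0.73 without knockout 4. With the other single arrays left out it ran from -0.30 to 0.26. Of the 25 members tested without knockout 4, Cxcl10 alone had an unadjusted p under 0.05 (limma), as had 0.629% of all probe sets tested. Cxcl9 read 48.8, 38.5 and 75.0 against 69.9, 115 and 66.7, with a log2 difference of 0.50 ± 0.29 (SE; interval -0.16 to 1.17), and 0.30 without knockout 4. Its other probe set was highest on heterozygous 5, at 53.4, with 44.6 on knockout 4. Cxcl11 was highest on heterozygous 3, at 103, and read between 27.7 and 73.6 elsewhere.

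Cxcr3 gave 96.2 ± 18.9 and 96.2 ± 14.2, with a log2 difference of 0.01 that turned to -0.02 under quantile normalization. Ccl5, a T cell and natural killer cell product, exceeded background on knockout 4 (70.4) and knockout 6 (32.3) only. Of 10 interferon-inducible genes listed beside them, 8 were measured, and their sum was 3109 on knockout 4 and between 1527 and 1764 on the other arrays, with 6 of the 8 highest on that array. All 8 had a log2 difference above 0, none was called (limma), and their median was 0.38. Without knockout 4, 6 of the 8 were above 0 and the median was 0.08. The antiviral gene Mx1 read 232 on knockout 4 and 35.9 and 38.6 on knockout 2 and 6, all above the heterozygous range of 17.1 to 31.3. Its log2 difference was 1.08, and 0.34 without knockout 4. Their part in the Cxcl9 and Cxcl10 signals was not tested.

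Cxcl9 and Cxcl10 lie close together on chromosome 5, and their upstream sequences are printed because both ligands peaked on the array with the highest interferon-inducible genes. Both are 250 bases before the RefSeq start in GRCm38.p6, minus strand, with the same motifs searched and matches in capitals. Cxcl10 is at chr5:92348890-92349139 and Cxcl9 at chr5:92328080-92328329.
Cxcl10: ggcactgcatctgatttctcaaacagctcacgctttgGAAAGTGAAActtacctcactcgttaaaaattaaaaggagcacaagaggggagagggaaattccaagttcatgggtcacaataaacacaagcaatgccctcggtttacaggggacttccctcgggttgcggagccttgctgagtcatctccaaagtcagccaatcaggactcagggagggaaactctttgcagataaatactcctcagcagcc
Cxcl9: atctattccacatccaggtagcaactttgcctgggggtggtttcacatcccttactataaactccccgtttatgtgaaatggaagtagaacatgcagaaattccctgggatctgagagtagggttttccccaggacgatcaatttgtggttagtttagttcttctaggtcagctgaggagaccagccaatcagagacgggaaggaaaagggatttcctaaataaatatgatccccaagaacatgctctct
The ISRE letters occur once in the Cxcl10 window, at bases 213 to 204 before the start. Cxcl9 holds no match to any of the 3 motifs in this window, which says only that these letters are not there. Of the 41 windows of the members, 2 hold the ISRE letters, those of Cxcl10 and Cxcl14. The NF-kB letters occur in 6 of the 41 (Ccl20, Cxcl1, Cxcl2, Cxcl3, Ccl9 and Ccr3) and the GAS letters in 4. These counts cover only the exact letters searched, and other forms of such sites were not sought. The Cxcl10 window holds gggaaattcc and ggggacttcc, which come near the NF-kB letters without matching them. The lack of a marked NF-kB match there does not show that a site is missing. Among all promoter windows the shares are 2.98% for ISRE, 1.41% for NF-kB and 7.02% for GAS. The 41 windows belong to 37 genes, as Ccl27a, Ccl25 and Ccr6 have more than 1 window. Windows of related genes, such as Cxcl1, Cxcl2 and Cxcl3, may also not be independent, and no excess over these shares was tested.

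The monocyte chemokines and their receptors Ccr1 and Ccr2 overlapped between genotypes and varied mainly from array to array. Ccl2, Ccl7 and Ccl12 recruit monocytes through Ccr2, and all 3 were highest on heterozygous 5. Ccl2 read 64.4, 119.0 and 205.0 on heterozygous 1, 3 and 5 and 78.4, 119.6 and 173 on knockout 2, 4 and 6. Ccl7 followed with 29.2, 63.6 and 113 against 49.2, 52.1 and 99.0. Ccl12 gave 174, 173 and 437 against 196, 219 and 305. In each of the 3 genes knockout 6 was the highest knockout array, and the log2 differences were 0.0049, 0.04 and -0.0086, with intervals of -0.91 to 0.92 for Ccl2 and -0.82 to 0.80 for Ccl12. The difference of Ccl12 turned to 0.01 under cyclic loess normalization.

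Ccr2, the receptor of inflammatory monocytes, read 268, 166 and 229.5 on heterozygous 1, 3 and 5 and 247, 300.4 and 279 on knockout 2, 4 and 6. The genotypes overlapped through heterozygous 1, and the log2 difference was 0.32 ± 0.20 (SE; interval -0.15 to 0.78). It was 0.14 without heterozygous 3 and 0.46 without heterozygous 1. The 5 measured neutrophil markers summed to 2737 on heterozygous 5, the highest, and to 659 on heterozygous 1, the lowest. Heterozygous 1 was also the lowest array for Ccl2 and Ccl7. Most of the sum was S100a8 and S100a9, at 1252 and 1222 on heterozygous 5. Ngp was also highest there, at 180, but Mpo (118) and Elane (25.3) were highest on knockout 2. Ngp, Mpo and Elane were not above background on all arrays of either genotype. The part of neutrophils in the Ccl2, Ccl7 and Ccr2 signals was not tested.

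Ccl6 and Ccl9, rodent chemokines of myeloid cells that act on Ccr1, were both highest on knockout 6. Ccl9 read 1775, 1769 and 2414 on heterozygous 1, 3 and 5 and 2098, 1927 and 3008 on knockout 2, 4 and 6, with a log2 difference of 0.23 ± 0.19 (SE), which ran from 0.033 without knockout 6 to 0.37 without heterozygous 5. Ccl6 read 1570.0, 1213 and 1627 against 1486, 1429.8 and 2122, with 0.18 ± 0.18 (SE). The other probe sets of both genes were also highest on knockout 6, at 319 for Ccl9 and 1410.4 for Ccl6. Without knockout 6 the Ccl6 difference was -0.00056. Ccr1 gave 135 ± 52.1 and 153 ± 28.4, a log2 difference of 0.20.

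The eosinophil chemokines Ccl11 and Ccl24 were level across the arrays. Ccl11 (eotaxin) read 1962, 1495 and 1454 on heterozygous 1, 3 and 5 and 1439, 1524 and 1830.2 on knockout 2, 4 and 6, a log2 difference of -0.03 (interval -0.37 to 0.32). Ccl24 lay between 121 and 159 on all arrays. Their receptor Ccr3 was under background throughout. Ccl8, whose receptor in mice is Ccr8, read 148 ± 71.8 and 149 ± 26.7 and was highest on heterozygous 5, at 231. Cxcl1, a neutrophil attractant, gave 124 ± 24.6 and 109.9 ± 12.5, while its receptor Cxcr2 was under background. Ccl27a, a skin chemokine with near-identical gene copies that its probe set may not tell apart, read 751 ± 284 and 751 ± 93.5, a log2 difference of 0.05. The probe sets shared by the Ccl27 copies, with mean signals of 803 and 995, gave log2 differences of -0.13 and 0.0067. The Ccl27a receptor Ccr10 read 51.3 ± 15.8 and 46.5 ± 14.5. The other members above background, Ccr6 (23.6 to 56.5) and Cxcl17 (16.2 to 58.2), fell under the filter.

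Of the 18 ligands above background with a receptor assigned among the members, 13 had that receptor above background as well. Each ligand was assigned a single receptor, and some receptors count for several ligands. Of all 17 receptors, 9 were above background. The 5 exceptions were Cxcl13 with Cxcr5, Ccl11 and Ccl24 with Ccr3, Ccl8 with Ccr8 and Cxcl1 with Cxcr2.

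**Figure D5:**
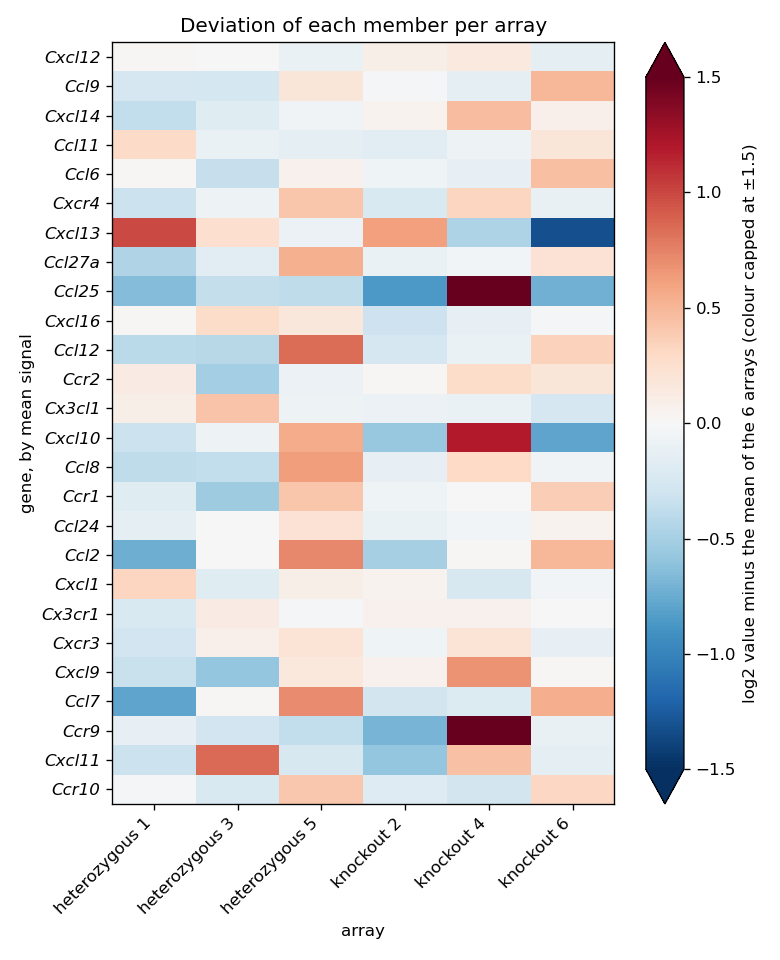
Each tested gene's log2 value on an array minus its mean over the 6 arrays, red for higher and blue for lower, with colour capped at ±1.5. Knockout 4 holds the deepest red cells, at Ccl25 and Ccr9, and heterozygous 5 is red for the monocyte chemokines Ccl2, Ccl7 and Ccl12.

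Differences between arrays ran across genotype. Of the 26 tested members, 9 were highest on heterozygous 5 and 8 on knockout 4, where 15.0% and 11.6% of all probe sets tested had their highest value on those arrays. Only 2 were highest on knockout 6 and 0 on knockout 2, against 27.8% and 16.1% of all probe sets tested. Heterozygous 1 and 3 were highest for 3 and 4 members, against 13.4% and 16.1%. Heterozygous 1 was the lowest array for 9 of the 26, against 16.2% of all probe sets tested. The median deviation of the members from their mean over the arrays ran from -0.24 on heterozygous 1 to 0.16 on heterozygous 5 (log2), both of the control genotype. Without heterozygous 5 the members' median genotype difference was 0.22, and without heterozygous 1 it was -0.11. Over the 26 members the highest array was at least 3 times the lowest for 7, namely Ccl25, Ccr9, Cxcl13, Cxcl10, Ccl7, Cxcl11 and Ccl2.

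Other genes of the chemokine system gave the same count of calls. Of 64 listed, 60 were measured and 51 tested, and 0 were called in either direction (limma), with 0 at an unadjusted p under 0.05. Their differences were above 0 for 33 and below 0 for 18, and the genotypes did not overlap for 5, where 3.68% of all probe sets tested do not overlap. Among the atypical receptors, which bind chemokines without G-protein signalling, Ackr3 takes up Cxcl12 and read 4527 ± 382 and 5077 ± 810.4, a log2 difference of 0.16. Ackr1, carried by venules and red cells, read 474 ± 76.4 and 605 ± 141, and Ackr4, which removes Ccl19, Ccl21 and Ccl25, read 1243 ± 175 and 1096 ± 49.8. Pf4, a CXC chemokine of platelets and macrophages that lacks a numbered symbol, gave 3369 ± 763 and 3533 ± 603.

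None of the signalling and regulatory genes was called (limma). Gnai2, the inhibitory G protein subunit that couples many of these receptors, read 3366 ± 92.2 and 3048 ± 349.8, a log2 difference of -0.15. Gnai1 gave 0.11, and the small GTPase Cdc42 gave 0.03. Among the genes that switch receptors off, Arrb1 (beta-arrestin 1) read 558 ± 85.0 and 460.0 ± 31.1 and Rgs16 read 55.3 ± 3.16 and 38.7 ± 6.15, each lower on all 3 knockout arrays, with log2 differences of -0.26 and -0.38. For Arrb1 the gap was narrow, at 495.5 on knockout 2 and 495.6 on heterozygous 1, while the receptor kinase Grk3 gave 0.05. Of the proteases, Adam10, which sheds Cxcl16 and Cx3cl1, read 4288 ± 555 and 4371 ± 317. Dpp4, which trims Cxcl12 and Cxcl10, read 2693 ± 268 and 3018 ± 399, and Mmp14 gave a log2 difference of 0.28.

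Among the interferon-inducible genes the immunoproteasome subunit Psmb8 read 329.7 ± 15.7 and 428 ± 77.6 with no overlap, and the transcription factor Irf1 gave 0.04. In the NF-kB pathway, which drives many inflammatory chemokines, the inhibitor Tnfaip3 read 495 ± 35.2 and 396 ± 73.8, lower on all 3 knockout arrays. Lta gave a log2 difference of -0.34 and Nfkbia one of -0.03.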

How the data were processed

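Thyroid RNA of 6 samples was labelled by the Ovation (NuGen) protocol and hybridised to Affymetrix mouse arrays, per the labels' protocols. The authors deposited an intensity on a linear scale for each probe set and array, made with GCOS per the submitters' processing notes. No version is given in the sources used here. After trimming 2% at each end the mean was 500.0 on every array, so that scaling was kept. Names came from the platform annotation, where 34958 of 45101 probe sets had 1 symbol, 932 several and 9211 none. RefSeq (GRCm38.p6) changed 0 of the symbols.

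Tests used log2(signal + 16.7); this pseudocount is the 25th percentile over the 6 arrays. On this scale the change of dim genes is understated. The 64 control probe sets were left out. Of 45037 others, 27022 with a mean log2 value above the 40th percentile, a signal of about 43.5, were fitted with limma 3.58.1 in R 4.3.3 (lmFit, eBayes with trend, Benjamini-Hochberg over 27022). An exact permutation of 3 against 3 arrays cannot go below p = 0.1. The number of arrays limits the precision. The fit was tested on simulated data.

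Members, lists and the rule for named genes were chosen with earlier results of these data known. The rule took Cxcl16, Cxcl12, the 10 members of highest mean, the 6 of smallest p, those above background without overlap, and their ligand or receptor partners above background. In the list of related genes it took the 2 of smallest p and the brightest of each role. Other members named were chosen after their values were seen. Tried as alternatives were normalization by quantiles or cyclic loess, a pseudocount 4 times smaller or larger, testing without the filter or with one at the 60th percentile, eBayes in robust form or without trend, array weights, averaging a gene's probe sets, other limits for background and each array left out.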

Additional observations from a re-analysis of the deposited data

How the results depend on the processing

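Calls stayed at 0 for members and for all probe sets tested under every alternative fit run over all probe sets (limma). Array weights gave 5 members at an unadjusted p under 0.05 (Cxcl14, Cxcl13, Ccl25, Cxcl9 and Ccr9) in place of 1, where the share of all probe sets tested rose from 0.511% to 3.39%. The members' median log2 difference, 0.03, ran from -0.11 to 0.22 with each array left out, and was -0.0037 without the filter. Counts above background were 27 to 31 of 50 by the other definitions at the same limit and 23 at a doubled limit. Over 328 refits of 21 named members, 31 turned direction, in 13 genes, none of which was called, and the causes were not tested. Outside the left-out arrays, these were Cxcr3 (-0.018, quantile), Ccl12 (0.011, cyclic loess; 0.082, array weights), Cxcr4 (0.24, array weights) and Ccl2 (-0.0091, larger pseudocount). With each array left out, the log2 difference ranged from -0.13 to 0.11 for Ccl11, -0.22 to 0.41 for Ccl12, -0.36 to 0.36 for Ccl2, -0.33 to 1.58 for Ccl25, -0.16 to 0.34 for Ccl27a, -0.00056 to 0.28 for Ccl6, -0.34 to 0.41 for Ccl7, -0.017 to 0.46 for Ccr1, -0.28 to 0.074 for Ccr10, -0.014 to 0.16 for Cx3cr1, -0.13 to 0.11 for Cxcr3 and -0.18 to 0.19 for Cxcr4. Ccr9, which falls under the filter without knockout 4, was -0.15 there with no filter, a refit added after seeing the data, and at most 0.98 with another array left out. Left-out arrays without the filter for Cxcl10, the Ccl21 copies and the interferon-inducible and lymphatic lists were added likewise. Cxcl12, Cxcl13, Cxcl14, Cxcl16, Cxcl9, Ccl9, Ccr2 and Cx3cl1 kept their direction in all refits run. For Cxcl9 and Ccr2 the average over tested probe sets held the representative probe set alone, so it could not differ. No paired analysis was possible because the groups share no sample number. Dim members near 22.9 are limited by signal over background.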

Other observations

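Some chemokine probe sets carry the symbols of several near-identical gene copies and so belong to no named member. The one for the Ccl21 copies, lymphatic and lymphoid stromal chemokines that guide Ccr7-bearing cells, read 605, 1685 and 1642 on heterozygous 1, 3 and 5 and 1713, 2059 and 2512 on knockout 2, 4 and 6. Every knockout array was above every heterozygous array, with heterozygous 1 far below the rest. The log2 difference was 0.79 ± 0.37 (SE; limma, unadjusted p = 0.0631, adjusted p = 1.0), and 0.31 without heterozygous 1. Of the 5 lymphatic endothelial markers, all had a log2 difference above 0, with a median of 0.31, and 4 of 5 with a median of 0.14 without heterozygous 1. Flt4 (0.51) and Reln (0.48) did not overlap between genotypes and had unadjusted p values of 0.0406 and 0.0281 (limma, adjusted p = 1.0). Over all probe sets tested, 3.68% did not overlap and 0.511% had an unadjusted p under 0.05 (limma). The genotypes overlapped for the other markers, Lyve1 (0.31), Prox1 (0.12) and Pdpn (0.04). The part of lymphatic endothelium in the Ccl21 signal was not tested. The markers' sum was also lowest on heterozygous 1, at 3462, against 4357 to 4942 elsewhere. The probe set for the Ccl19 copies, which share the receptor Ccr7, read 187 ± 22.6 and 171 ± 12.2. Ccr7 itself exceeded background on heterozygous 5 alone, at 24.2.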
